A study of Homo sapiens with 36 samples.

Results

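The 9 genes described here are NFE2L2, which encodes the transcription factor NRF2, its inhibitor KEAP1, and 7 antioxidant genes known as NRF2 targets (GCLC, GCLM, SLC7A11, TXNRD1, SRXN1, HMOX1 and NQO1). They were chosen by name, and all 9 are among the 19014 genes of the authors' table of normalized counts and among the 15711 genes tested. RNA-seq libraries were made from clones of H446, a permanent line of human small-cell lung carcinoma assigned to the NEUROD1 subtype. The first set holds 3 NEUROD1 knockout (KO) clones, numbered 12, 15 and 2-1, all made with 1 guide RNA against NEUROD1. The second holds 3 control clones, numbered 3, 10 and 13, which carry a non-targeting guide RNA. All 6 clones received either JQ1 at 1 µM, which displaces BET bromodomain proteins from acetylated chromatin, or the solvent DMSO, in both cases for 24 h. There are 3 biological replicate libraries per clone and treatment. The clone was taken as the replicate, so n = 3 per group and every SD is over clones unless it is said to be over libraries. A clone carries its own history besides the edit, so the loss of NEUROD1 and differences between clones cannot be fully told apart.

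In unstressed cells KEAP1 holds NRF2 in the cytoplasm and hands it to a CUL3 ubiquitin ligase for destruction. Oxidants or electrophiles that modify KEAP1 let NRF2 accumulate, enter the nucleus, pair with a small MAF protein and bind antioxidant response elements. This control acts on the NRF2 protein, which RNA levels do not measure. Lung cancers of several kinds carry mutations that stabilise NRF2, and its targets supply glutathione, thioredoxin and NADPH-dependent detoxification.

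The antioxidant response element is commonly written TGACNNNGC, and these letters were searched on both strands in promoter windows from RefSeq (GRCh38.p14), which run from 250 bases before to 50 bases after each annotated start. Windows were found for 7 of the 9 genes, 10 windows in all; HMOX1 and SLC7A11 had none. TGACNNNGC stood in 4 windows of 3 genes (GCLM, TXNRD1 and KEAP1), against 13.3% of 35116 windows of all genes. The stricter form, the same letters with an A directly before and an A directly after them, stood in 1 window of each of these 3 genes, against 0.746% of all windows. These 3 are all the matches to the stricter form in the 10 windows, and capitals mark the 11 matched bases.
GCLM: ctggaagacaATGACTAAGCAgaaatcgta
TXNRD1: cagagtcagaATGACAAAGCAgaaatccac
KEAP1: gcaggtcaccATGACTAAGCAgagccgggc
The GCLM stretch is chr1:93909445-93909474 on the plus strand, the gene lies on the minus strand, and the match ends 25 bases before the start. The TXNRD1 stretch is chr12:104286920-104286949 on the minus strand of a plus-strand gene, and its match ends 93 bases before the downstream of 2 annotated starts. The KEAP1 stretch is chr19:10502783-10502812 on the plus strand of a minus-strand gene, and its match ends 22 bases before the downstream of 2 starts. All 30 bases of the TXNRD1 and KEAP1 stretches and 12 bases of the GCLM stretch fall within exons of GENCODE release 29. CAGATG, an E-box of the kind NEUROD1 binds, was in 1 window, of KEAP1, against 14.7% of all windows. A match describes these letters and is not evidence of binding. Sequence outside the windows was not searched, so a gene without a match may still have one elsewhere.

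The 35 libraries used held 13282337 to 18890506 reads, with a median of 16176503. NEUROD1 averaged 1.87 ± 2.93 normalized counts (authors' counts divided by 1 size factor per library) in KO clones and 5998 ± 580 in control clones with DMSO. The neuroendocrine markers INSM1, CHGA and SYP reached at most 55.6, 91.4 and 239.5 normalized counts in KO libraries, against at least 2065, 2678 and 2041 in control libraries. ELAVL4 was at 0 in all KO libraries used, and NCAM1 lay at 1575 to 4660 normalized counts in KO libraries, below all control libraries (5325 to 10588), so the listed markers of the labelled subtype are lower or absent in the KO clones. HEXIM1, a gene known to rise under BET inhibition, rose with JQ1 by 1.96 (SE 0.09) in KO clones and by 2.22 (SE 0.09) in control clones on the log2 scale. KO clone 12 with JQ1, replicate 1, is left out of every value below unless it is named: its summed lung and blood markers (SFTPA2, SFTPC, CD74, PTPRC and CEACAM6) stood at 71662 normalized counts, against 0 to 26.0 in 34 libraries and 122 in control clone 13 with JQ1, replicate 1. COL1A1, also on that marker list, had 9869 there, against 137 to 1176 in the other KO libraries and 107 to 2232 in control libraries, and SFTPB and HBB were not used here. This leaves 2 libraries for that clone and treatment.

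Per length of transcript, TXNRD1 had the highest level of the 9 genes and SLC7A11 the lowest. TXNRD1 averaged between 87.2 and 305.7 FPKM over the 4 groups. NFE2L2 was nearly constant, between 54.9 and 57.6 FPKM. KEAP1 lay between 34.2 and 58.2 FPKM, GCLC between 20.9 and 77.6, and SRXN1 between 17.4 and 30.3. GCLM lay between 10.2 and 16.6 FPKM, HMOX1 between 5.48 and 18.1, NQO1 between 1.87 and 13.7, and SLC7A11 between 0.708 and 1.88. The ranges of neighbours in this order overlap, except between TXNRD1 and NFE2L2 and between SRXN1 and GCLM. NQO1 spanned 7.34-fold between its lowest and highest group and NFE2L2 1.05-fold.

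**Figure D1:**
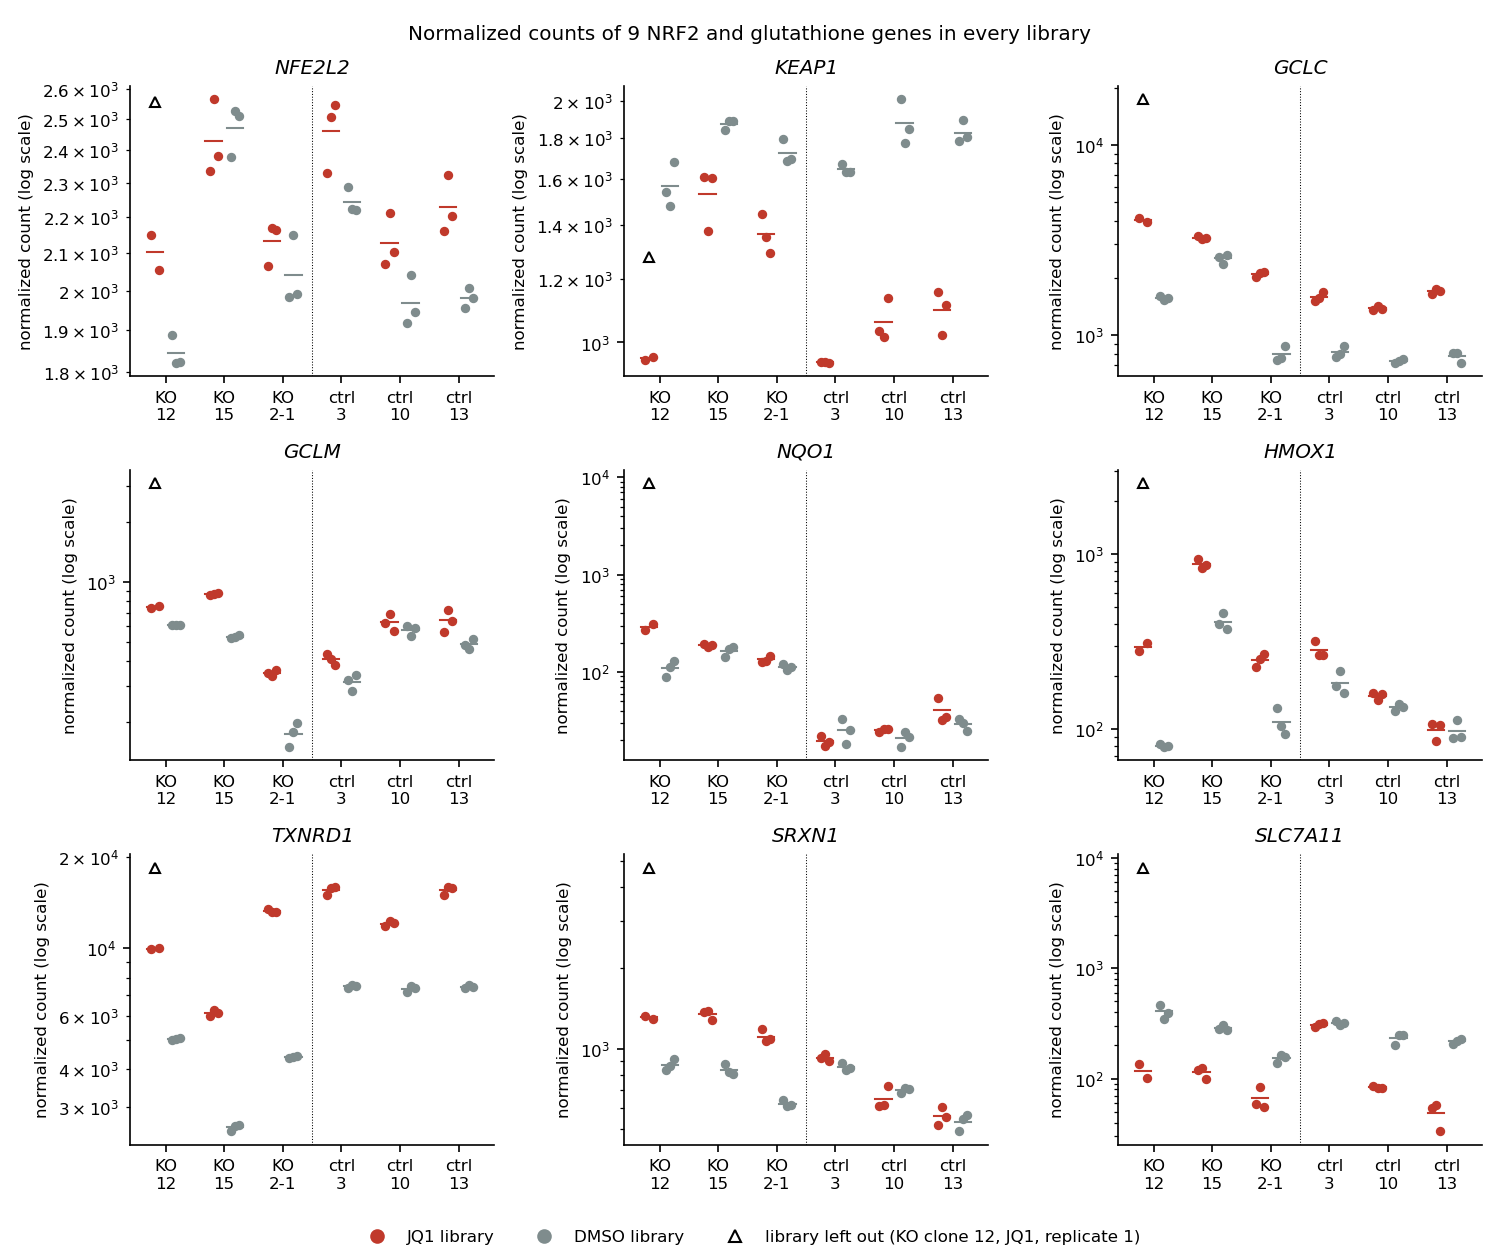
Normalized count (log scale, each panel on its own range) of the 9 genes in every library, by clone, with KO clones left of control clones (ctrl), JQ1 in red and DMSO in grey; lines are clone means and triangles the library left out. KEAP1 is lower and TXNRD1 and GCLC are higher with JQ1 in all 6 clones, and NQO1 is higher in every KO library than in every control library.

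JQ1 was compared with DMSO within each clone, separately for each genotype. In KO clones 7 of the 9 passed the test (limma, Benjamini-Hochberg adjusted p under 0.05 over all genes): GCLC, GCLM, HMOX1, TXNRD1 and SRXN1 rose, and KEAP1 and SLC7A11 fell. In these clones 56.5% of all genes tested passed, 26.3% upward and 30.2% downward. In control clones 4 of 9 passed, GCLC and TXNRD1 upward and KEAP1 and SLC7A11 downward, against 52.7% of all genes, 25.3% upward and 27.4% downward. The median log2 change of the 9 genes was 0.67 in KO clones and 0.14 in control clones, against -0.05 and -0.01 for all genes tested. The count in control clones is close to that share, so sizes and directions in each clone follow. In bulk RNA, fewer cells expressing a gene and less of its RNA per cell cannot be told apart.

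NFE2L2 RNA changed by less than any other of the 9 genes with JQ1 in KO clones and did not pass. With JQ1 its lowest, median and highest library had 2054, 2166 and 2565 normalized counts in KO clones, and with DMSO 1820, 1990 and 2526. In control clones the corresponding values were 2069, 2213 and 2544 with JQ1 and 1916, 2007 and 2288 with DMSO. The ranges overlap over all clones of a genotype. Within KO clone 12 and each of the 3 control clones, however, every JQ1 library lay above every DMSO library. Its log2 change was 0.08 (SE 0.06, adjusted p = 0.277) in KO clones and 0.14 (SE 0.06, adjusted p = 0.0666) in control clones. The control change passed with TMM scaling (adjusted p = 0.0469), without clone 12, which enters through the shared spread (adjusted p = 0.0369), and without JQ1 replicate 1 of control clone 3 (adjusted p = 0.0497).

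KEAP1, the adaptor that marks NRF2 for degradation, fell in all 6 clones. In KO libraries it had 951, 1366 and 1608 normalized counts (lowest, median and highest) with JQ1, against 1478, 1694 and 1888 with DMSO. In control libraries it had 943, 1020 and 1155 with JQ1, against 1630, 1786 and 2011 with DMSO. The control ranges do not overlap, and within each KO clone every JQ1 library lay below every DMSO library. The level fell by 0.45 (SE 0.08, adjusted p = 0.00181) in KO clones and by 0.79 (SE 0.08, adjusted p = 0.000109) in control clones on the log2 scale. KO clone 12 had 956 normalized counts with JQ1, against 1565 with DMSO, or 0.61 of its DMSO level, beside 0.565 to 0.600 in the control clones. KO clones 15 and 2-1 had 1530 and 1364 with JQ1, against 1872 and 1723 with DMSO. The difference between genotypes in the KEAP1 response, 0.34 (SE 0.12), missed the threshold at adjusted p = 0.107, and passed it without clone 12 at 0.47 (adjusted p = 0.0195).

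SLC7A11, the cystine importer subunit that supplies cysteine for glutathione, fell in 5 of 6 clones. With JQ1 KO clones 12, 15 and 2-1 averaged 118, 115 and 66.6 normalized counts, against 406, 288 and 154 with DMSO. Control clones 10 and 13 averaged 83.6 and 48.5 with JQ1, against 234.7 and 219 with DMSO. Control clone 3 stood apart, with 306 normalized counts with JQ1 and 321 with DMSO, and its libraries overlap. The level fell by 1.44 (SE 0.33, adjusted p = 0.00552) in KO clones and by 1.24 (SE 0.33, adjusted p = 0.0121) in control clones on the log2 scale. The call in control clones was lost without clone 10 (adjusted p = 0.0707) and without clone 13 (-0.77, adjusted p = 0.0812). Without clone 3 the control value was -1.83 (adjusted p = 0.000947). With the library left out put back, the KO value was -0.76 (adjusted p = 0.154).

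GCLC and GCLM encode the catalytic and the modifier subunit of glutamate-cysteine ligase, which makes the first bond of glutathione. GCLC libraries had 2032, 3239 and 4142 normalized counts (lowest, median and highest) in KO clones with JQ1, against 743, 1565 and 2639 with DMSO. In control clones GCLC had 1353, 1566 and 1754 with JQ1, against 714, 773 and 878 with DMSO. JQ1 libraries lay above DMSO libraries in each of the 6 clones. The rise was 2.07-fold in KO clones (log2 1.05, SE 0.18, adjusted p = 0.00114) and 2.01-fold in control clones (log2 1.00, SE 0.18, adjusted p = 0.00156). KO clone 15, which began highest at 2537 normalized counts with DMSO, rose 1.29-fold, against 2.58-fold in clone 12 and 2.65-fold in clone 2-1. The KO minus control difference in the GCLC response was 0.04, with a 95% interval of -0.52 to 0.61.

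GCLM rose in KO clones, and its change in control clones lay near the threshold. KO clones 12, 15 and 2-1 averaged 750, 868 and 349 normalized counts with JQ1, against 607, 531 and 174 with DMSO. Control clones 3, 10 and 13 averaged 409, 628 and 642 with JQ1, against 316, 575 and 487 with DMSO. GCLM rose 1.59-fold in KO clones (log2 0.67, SE 0.12, adjusted p = 0.00193). In control clones the log2 change was 0.30 (SE 0.12, adjusted p = 0.0743) on normalized counts and 0.59 on FPKM, where it passed (adjusted p = 0.0107). On normalized counts it passed without clone 12 or 2-1, which enter through the shared spread (adjusted p = 0.0211 and 0.03), and without replicate number 1 or 3 (adjusted p = 0.042 and 0.0455). The ratio of GCLC to GCLM in FPKM averaged 4.90 ± 0.94 with JQ1 and 4.0 ± 1.08 with DMSO in KO clones, and 2.71 ± 0.54 and 2.24 ± 0.97 in control clones (SD, n = 3 each).

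TXNRD1, the cytosolic thioredoxin reductase, rose in all 6 clones. KO libraries had 6006, 9978 and 13451 normalized counts (lowest, median and highest) with JQ1, against 2501, 4401 and 5081 with DMSO. Control libraries had 11803, 14987 and 15967 with JQ1, against 7159, 7459 and 7596 with DMSO. Neither pair of ranges overlaps. The rise was 2.42-fold in KO clones (log2 1.28, SE 0.11, adjusted p = 4.18e-05) and 1.92-fold in control clones (log2 0.94, SE 0.11, adjusted p = 0.000192). The difference in response, 0.33 (SE 0.16), missed the threshold (adjusted p = 0.208).

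**Figure D2:**
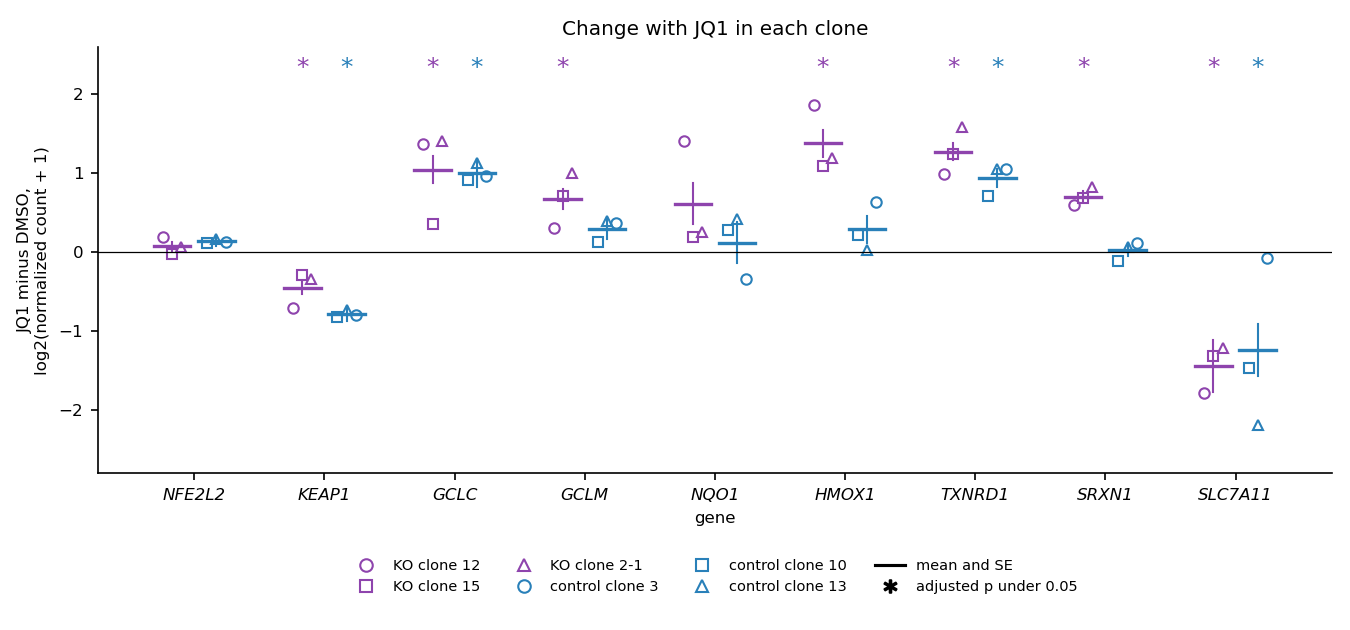
JQ1 minus DMSO difference of log2(normalized count + 1) for each of the 9 genes in each clone (KO left, in purple; control right, in blue), with the group mean and its standard error from limma; an asterisk marks adjusted p under 0.05. SRXN1 and HMOX1 rise in all 3 KO clones by more than in any control clone, GCLC and TXNRD1 rise in all 6 clones, and SLC7A11 falls in all but control clone 3.

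HMOX1 and SRXN1 were the 2 of 9 genes whose response to JQ1 differed between genotypes, both higher in KO clones, against 7.35% of all genes tested, 3.76% higher and 3.58% lower. SRXN1, sulfiredoxin, repairs over-oxidised peroxiredoxins. With JQ1 it averaged 1311, 1346 and 1110 normalized counts in KO clones 12, 15 and 2-1, against 869, 834 and 624 with DMSO. In control clones 3, 10 and 13 it averaged 927, 651 and 561 with JQ1, against 853, 702 and 534 with DMSO. KO clones rose 1.51- to 1.78-fold, and control clones lay between 0.927 and 1.09 times their DMSO level. The log2 change was 0.70 (SE 0.07, adjusted p = 9.47e-05) in KO clones and 0.02 (SE 0.07, adjusted p = 0.797) in control clones. The difference was 0.68 (SE 0.10, adjusted p = 0.0152).

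HMOX1, heme oxygenase 1, breaks heme down to biliverdin, iron and carbon monoxide. In the 2 JQ1 libraries of KO clone 12 it had 279 and 310 normalized counts, against 82.0, 78.6 and 79.9 with DMSO. KO clone 15 had 934, 831 and 863 with JQ1, against 399, 459 and 375 with DMSO. KO clone 2-1 had 227, 252 and 269 with JQ1, against 131.5, 104 and 93.3 with DMSO. Within each KO clone the treatments do not overlap, and clone 15 stood above the other KO clones in both. Control clone 3 had 320, 265 and 266 with JQ1, against 175, 214 and 160.1 with DMSO. Control clone 10 had 160.2, 145 and 158 with JQ1, against 126, 139 and 134 with DMSO. Control clone 13 had 106, 85.4 and 105 with JQ1, against 88.9, 113 and 89.9 with DMSO, and its treatments overlap. The log2 change was 1.38 (SE 0.17, adjusted p = 0.000225) in KO clones, a 2.61-fold rise, and 0.29 (SE 0.17, adjusted p = 0.181) in control clones. The difference was 1.09 (SE 0.24, adjusted p = 0.0354).

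Both differences kept their direction without any 1 clone, but the calls rest on most of the clones. The HMOX1 call was lost without clone 3, 10, 13 or 15 (adjusted p = 0.0697, 0.131, 0.11 and 0.0739), on FPKM (adjusted p = 0.0564) and with the left-out library put back (adjusted p = 0.113). The SRXN1 call was lost without the same clones (adjusted p = 0.0538, 0.0826, 0.0544 and 0.052).

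NQO1, a quinone reductase widely read as a marker of NRF2 activity, did not pass with JQ1 in either genotype, and KO clone 12 stood apart. There its 2 JQ1 libraries had 268 and 314 normalized counts, against 89.2, 111 and 131 with DMSO. KO clones 15 and 2-1 averaged 188 and 135 with JQ1, against 166 and 113 with DMSO. Control clones 3, 10 and 13 averaged 19.4, 25.4 and 40.4 with JQ1, against 25.4, 21.0 and 29.3 with DMSO. The log2 change was 0.62 (SE 0.26, adjusted p = 0.0697) in KO clones and 0.12 (SE 0.26, adjusted p = 0.721) in control clones. The library of control clone 13 with 80.4 normalized counts of CEACAM6 had 54.4 of NQO1, against 32.4 and 34.3 in the other 2 of that clone with JQ1. Without it the control change was 0.04.

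Between genotypes, NQO1 was the gene that separated KO from control clones under both treatments. With DMSO 1 of 9 genes passed, NQO1, which was higher in KO clones; 12.5% of all genes tested passed, 6.29% upward and 6.26% downward. With JQ1 3 of 9 passed, NQO1, GCLC and SRXN1, all higher in KO clones, against 11.2% of all genes in either direction, 5.66% upward and 5.57% downward. The median log2 difference of the 9 genes was 0.29 with JQ1 and 0.04 with DMSO, against 0.00 and 0.01 for all genes. The comparisons share libraries with those of JQ1, so they are not independent of them.

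NQO1 libraries with JQ1 had 127, 186 and 314 normalized counts (lowest, median and highest) in KO clones and 17.3, 25.9 and 54.4 in control clones. With DMSO they had 89.2, 122 and 181 in KO clones and 16.9, 25.0 and 33.0 in control clones. No KO library fell within the control range. NQO1 was 7.02-fold higher in KO clones with JQ1 (log2 2.81, SE 0.39, adjusted p = 0.00513) and 4.98-fold higher with DMSO (log2 2.32, SE 0.29, adjusted p = 0.00433). Both calls held without any 1 clone, library or replicate number, with log2 values of 2.52 to 3.08 and 2.13 to 2.43.

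GCLC averaged 3136 ± 978 normalized counts in KO clones and 1559 ± 160.1 in control clones with JQ1, and every KO library lay above every control library. The log2 difference was 0.96 (SE 0.25, adjusted p = 0.0485). With DMSO GCLC averaged 1632 ± 874 in KO clones and 775 ± 42.0 in control clones (log2 0.92, SE 0.39, adjusted p = 0.185). KO clone 2-1, at 793, lay within the control range of 733 to 817, while clones 12 and 15 had 1565 and 2537. Without clone 2-1 the difference with DMSO passed, at log2 1.36 (adjusted p = 0.0184). SRXN1 averaged 1256 ± 127 in KO clones and 713 ± 191 in control clones with JQ1, again without overlap of libraries (log2 0.85, SE 0.21, adjusted p = 0.0475), and 776 ± 132 and 697 ± 159 with DMSO, where they overlap (log2 0.17, SE 0.23, adjusted p = 0.69).

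The GCLC and SRXN1 calls with JQ1 lie close to the threshold, and edgeR's quasi-likelihood test gave adjusted p = 0.0502 and 0.0663. The GCLC call was lost without clone 3, 10, 12, 13 or 15 (adjusted p = 0.119, 0.172, 0.0866, 0.103 and 0.123) and without 1 library each of KO clones 12 and 2-1 and control clones 3 and 13 (JQ1 replicates 3, 3, 1 and 1, adjusted p = 0.0505, 0.0517, 0.0507 and 0.0512). The SRXN1 call was lost without clone 2-1, 10, 12, 13 or 15 (adjusted p = 0.0723, 0.17, 0.0963, 0.131 and 0.12), without JQ1 replicate 1 of KO clone 2-1 (adjusted p = 0.0523) and without JQ1 replicate 3 of control clone 3 (adjusted p = 0.0508).

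TXNRD1 had lower values in KO clones but did not pass. With JQ1 it averaged 9796 ± 3569 normalized counts in KO clones and 14401 ± 2024 in control clones, with overlapping libraries (log2 -0.62, SE 0.28, adjusted p = 0.218). With DMSO it averaged 4006 ± 1276 in KO clones and 7443 ± 82.2 in control clones. No KO library with DMSO reached the lowest control library, yet the log2 difference of -0.95 (SE 0.25) just missed the threshold at adjusted p = 0.0537. It passed on FPKM (adjusted p = 0.0445), with TMM scaling (adjusted p = 0.0488), in DESeq2 (adjusted p = 0.0107), without clone 12 (adjusted p = 0.033) and without clone 15 (adjusted p = 0.0312).

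The other 5 genes did not pass between genotypes. HMOX1 averaged 473 ± 350 normalized counts in KO clones and 179 ± 94.9 in control clones with JQ1 (log2 1.29, SE 0.56, adjusted p = 0.193), and 200 ± 183 and 137.8 ± 43.1 with DMSO. Its KO spread with DMSO comes from clone 15 at 411, against 80.2 and 110 in clones 12 and 2-1. GCLM averaged 656 ± 272 in KO clones and 560 ± 131 in control clones with JQ1, and 437 ± 231 and 459 ± 132 with DMSO. KEAP1 averaged 1283 ± 296 and 1034 ± 79.7 with JQ1, and 1720 ± 153 and 1782 ± 123 with DMSO, in the same order of genotypes. The log2 differences of SLC7A11 and NFE2L2 were -0.16 and -0.03 with JQ1 and 0.04 and 0.03 with DMSO. The 95% interval of the SLC7A11 difference with JQ1, -1.69 to 1.38, leaves sizeable changes in either direction unresolved.

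**Figure D3:**
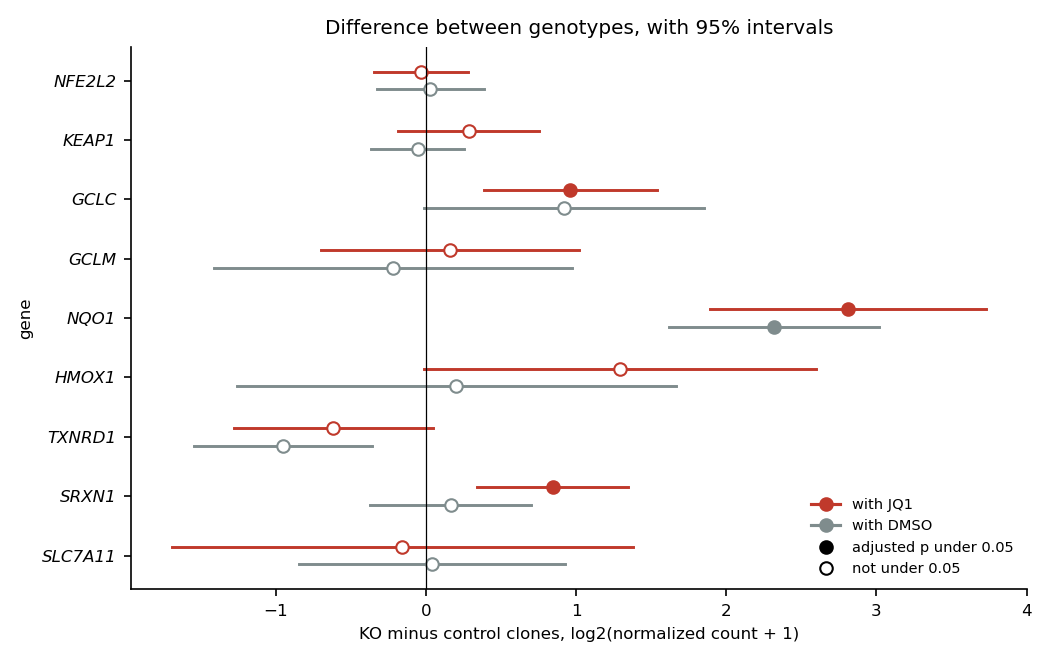
Difference between KO and control clones in log2(normalized count + 1) for the 9 genes, with JQ1 (red, upper) and with DMSO (grey, lower); lines are 95% intervals and filled points have adjusted p under 0.05. NQO1 is higher in KO clones under both treatments, GCLC and SRXN1 pass with JQ1, and the interval of TXNRD1 with DMSO lies below 0 without passing.

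The wider pathway was described with 7 lists of 127 genes, of which 115 were tested. With JQ1, 37 of the 115 rose and 28 fell in KO clones, beside 26.3% and 30.2% of all genes tested. In control clones 50 rose and 19 fell, beside 25.3% and 27.4%. The median log2 change was 0.07 in KO clones and 0.20 in control clones. Between genotypes 13 were higher and 5 lower in KO clones with JQ1, beside 5.66% and 5.57% of all genes, and 16 were higher and 5 lower with DMSO, beside 6.29% and 6.26%. Some of the genes higher in KO clones, such as ABCC3, entered the tests only through KO libraries and could hardly be lower there. The JQ1 response differed for 8 of the 115 genes, 2 higher and 6 lower in KO clones, which is close to the 7.35% of all genes.

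Among 14 partners and regulators of NRF2, 4 rose and 2 fell with JQ1 in KO clones (26.3% and 30.2% of all genes), and 4 rose and 4 fell in control clones (25.3% and 27.4%), so these counts are near those of any genes. SQSTM1, the autophagy receptor that sequesters KEAP1, averaged 6777 ± 4134 normalized counts with JQ1 and 3225 ± 2034 with DMSO in KO clones, and 1908 ± 125 and 1070 ± 78.0 in control clones. It rose by log2 1.07 (adjusted p = 3.61e-05) in KO clones and 0.83 (adjusted p = 0.000121) in control clones, and was higher in KO clones with JQ1 by 1.65 (SE 0.39, adjusted p = 0.0396). GSK3B, a kinase that marks NRF2 for degradation without KEAP1, rose by 1.05 and 0.84 in KO and control clones, and DPP3, another KEAP1-binding protein, by 0.88 and 0.64. MAFK, a small MAF partner of NRF2, was higher in KO clones, at 354 ± 42.6 against 211 ± 19.2 with JQ1 and 324 ± 30.05 against 192 ± 23.4 with DMSO (adjusted p = 0.0497 and 0.0409). BACH1, the repressor that competes with NRF2 at HMOX1, lies outside the naming rule and was looked up after the values were seen: it averaged 1042 ± 305 in KO clones and 759 ± 296 in control clones with JQ1, and passed in no comparison.

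Of 11 genes of glutathione synthesis and breakdown, 4 rose and 3 fell with JQ1 in KO clones (26.3% and 30.2% of all genes), and 7 rose and none fell in control clones (25.3% and 27.4%). GSS, which adds glycine to complete glutathione, averaged 2245 ± 443 with JQ1 and 1317 ± 259 with DMSO in KO clones, and 2171 ± 343 and 1234 ± 162 in control clones (log2 0.77 and 0.81). CTH, which makes cysteine from cystathionine, rose by 1.24 in KO clones and 0.66 in control clones. Of 22 genes of glutathione use, 5 rose and 5 fell in KO clones and 8 rose and 5 fell in control clones, against the same shares of all genes. GPX8, a peroxidase of the endoplasmic reticulum, and MGST2, a microsomal glutathione transferase, fell by 1.10 and 1.03 in KO clones and by 1.25 and 0.78 in control clones. GSTA4, a glutathione transferase for lipid aldehydes, was lower in KO clones with JQ1 (176 ± 62.3 against 353 ± 28.8) and with DMSO (221 ± 36.2 against 457 ± 54.8). It was the 1 gene of the 22 called between genotypes with DMSO, beside 12.5% of all genes. With JQ1 there were 2, beside 11.2% of all genes, so these counts do not exceed those shares. The other, GSTM3, was higher in KO clones (1857 ± 320 against 1042 ± 211, adjusted p = 0.046).

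Of 18 thioredoxin, peroxiredoxin, superoxide dismutase and catalase genes, 8 rose and 5 fell with JQ1 in KO clones (26.3% and 30.2% of all genes) and 9 rose and 4 fell in control clones (25.3% and 27.4%). TXNRD2, the mitochondrial counterpart of TXNRD1, fell to 109.5 ± 51.6 normalized counts with JQ1, against 352 ± 106 with DMSO, in KO clones, and to 99.1 ± 20.4, against 315 ± 5.86, in control clones. The cytosolic and mitochondrial reductases moved in opposite directions in both genotypes. Between genotypes 3 of the 18 passed under each treatment, all higher in KO clones (5.66% of all genes with JQ1 and 6.29% with DMSO): PRDX6, PRDX4 and CAT. PRDX6, a peroxiredoxin that uses glutathione, averaged 5291 ± 575 in KO clones and 3070 ± 78.1 in control clones with JQ1, and 5457 ± 432 and 3141 ± 48.5 with DMSO (adjusted p = 0.0111 and 0.00707).

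Of 11 genes of NADPH supply, 5 rose and 2 fell with JQ1 in KO clones (26.3% and 30.2% of all genes) and 8 rose and 1 fell in control clones (25.3% and 27.4%). ME1, malic enzyme, was the 1 that fell in control clones, to 97.6 ± 34.98 with JQ1 against 314 ± 70.2 with DMSO. In KO clones, which varied widely, it averaged 285 ± 245 with JQ1 and 385 ± 268 with DMSO. Its response differed between genotypes by 1.17 (SE 0.19, adjusted p = 0.0184). PGLS, of the pentose phosphate pathway, differed in the opposite direction, by -0.62 (SE 0.12, adjusted p = 0.0278), at 377 ± 132 with JQ1 and 412 ± 119 with DMSO in KO clones and 399 ± 10.9 and 288 ± 26.6 in control clones. MTHFD2, of mitochondrial folate metabolism, was lower in KO clones, at 3701 ± 409 against 8219 ± 1868 in control clones with JQ1 and 2083 ± 316 against 5208 ± 600 with DMSO. Of 12 genes of the ATF4 stress response, which also drives SLC7A11, 3 rose and 2 fell with JQ1 in KO clones and 6 rose and 2 fell in control clones, against the same shares of all genes. ASNS averaged 3061 ± 968 with JQ1 and 1132 ± 85.0 with DMSO in KO clones, a rise of log2 1.39 (adjusted p = 0.000316). In control clones its mean was also higher with JQ1, at 5575 ± 3467 against 2360 ± 500 with DMSO. TRIB3, a pseudokinase, fell by 0.68 in KO clones (adjusted p = 0.000514) and by 0.75 in control clones (adjusted p = 0.000338).

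Among 27 other NRF2 targets, 5 were higher and 1 lower in KO clones with JQ1 (5.66% and 5.57% of all genes), and 8 were higher and none lower with DMSO (6.29% and 6.26%). Some of the 27, such as ABCC3, ALDH3A1 and AKR1C3, were near 0 in control clones and entered the tests through KO libraries. Such genes could hardly come out lower in KO clones, so the genotype counts are not read as a result about this list. With JQ1 8 rose and 9 fell in KO clones, near the 26.3% and 30.2% of all genes, and 8 rose and 3 fell in control clones (25.3% and 27.4%). ABCC3, an efflux pump for glutathione and glucuronide conjugates, averaged 29.6 ± 10.9 normalized counts in KO clones and 0.528 ± 0.914 in control clones with JQ1, and 184 ± 28.99 and 1.51 ± 1.09 with DMSO. ALDH3A1, an aldehyde dehydrogenase, averaged 1.71 ± 2.15 with JQ1 and 31.4 ± 8.83 with DMSO in KO clones and was at 0 in all control clones. ABCC3 fell with JQ1 in KO clones (adjusted p = 0.000133). ALDH3A1 entered the tests through KO libraries with DMSO, which favours a fall with JQ1. Its lower level with JQ1 is therefore given without a test. ABCC3 also entered through KO libraries, and control clones had next to no level of either gene from which to fall. No difference in response between genotypes is read from these genes. FTL and FTH1, the ferritin chains, rose in both genotypes, FTL by log2 1.78 and 1.59 in KO and control clones. Ferritin genes and AKR1C2 and AKR1C3 have near-identical copies among which reads can be divided, so their values are uncertain.

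**Figure D4:**
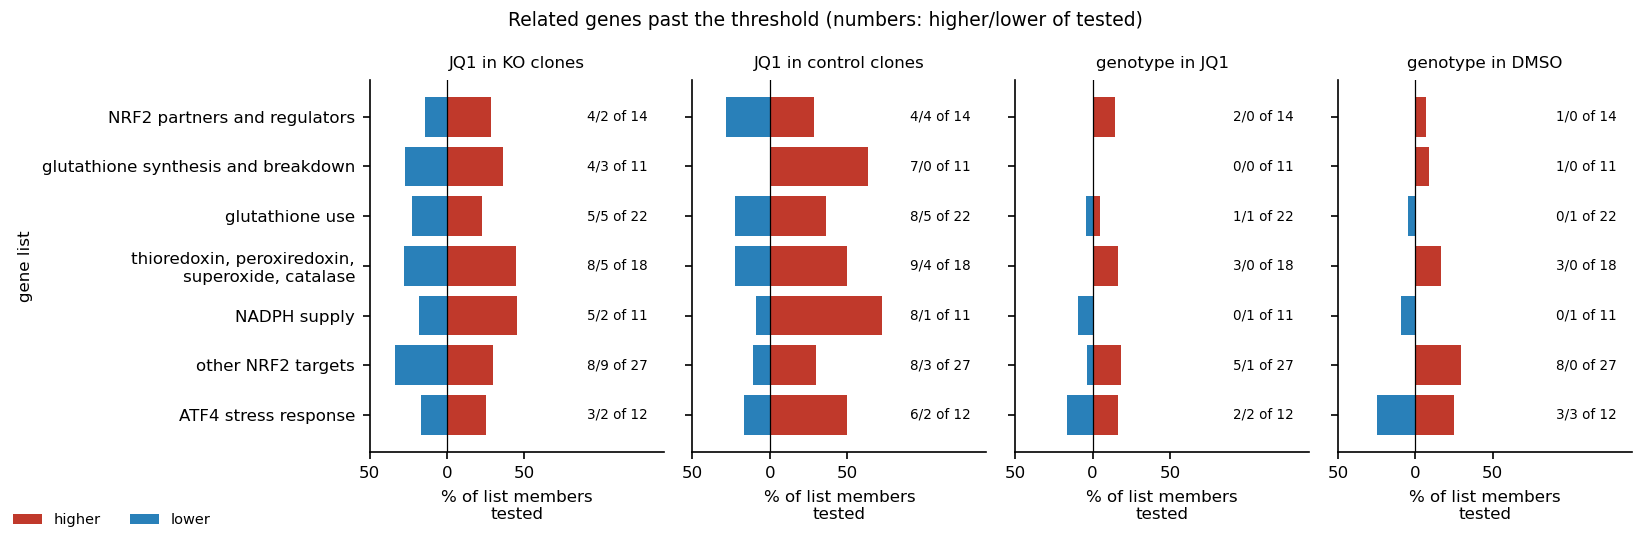
Share of the tested genes of each of 7 related lists that passed the threshold upward (red) or downward (blue), for JQ1 in KO and control clones and for KO against control clones with JQ1 and with DMSO; the numbers give higher and lower of those tested. Of 27 other NRF2 targets, 8 were higher and 0 lower in KO clones with DMSO (6.29% and 6.26% of all genes), and 8 rose and 9 fell with JQ1 in KO clones (26.3% and 30.2% of all genes). Some of the 27 entered the tests only through KO libraries and could hardly be lower there, so these counts are not read as a result.

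The 9 genes did not follow 1 common pattern over the 12 clone and treatment means. The closest pairs were HMOX1 with SRXN1 (r = 0.77), HMOX1 with NFE2L2 (r = 0.77) and GCLC with SRXN1 (r = 0.75), and the most opposed were KEAP1 and TXNRD1 (r = -0.76). NQO1, with a mean under 100, was not included. These correlations of log2(normalized count + 1) share clones and treatments and are given as descriptions. Among 11024 genes whose mean reached 100, the 3 genes most like NFE2L2 were GALNT11, LMBR1 and SMPD1 (r = 0.93 to 0.92), and those most like KEAP1 were NFIC, ZNF182 and ZNF815P (0.97 to 0.96). C9orf85, AVEN and RBM18 were most like GCLC (0.97 to 0.96), and ARHGAP20, DRG1 and DBR1 most like GCLM (0.95 to 0.91). PIGP, BPNT1 and ZNRD1 were most like SLC7A11 (0.92 to 0.91), and MPHOSPH9, MPRIP and C12orf49 most like TXNRD1 (0.97 each). BET1L and CTH were among those most like SRXN1 (0.92 each), and PBDC1, KLHL20 and ATG4A most like HMOX1 (0.95 to 0.93).

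Annotated genes overlap 7 of the 9, and whether the authors' counting used the strand is not stated in the labels. In GENCODE release 29 AGPS lies on the strand opposite NFE2L2, SLC7A11-AS1 opposite SLC7A11, EID3 on the same strand within TXNRD1 and AL121758.1 on the same strand as SRXN1, so reads of these pairs may not be fully separated.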

How the data were processed

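Stranded poly(A) libraries of 36 samples were processed by the authors with cutadapt, STAR and RSEM on hg19, per the submitters' processing notes. The deposited normalized counts are a signal: each library's gene counts over its size factor. The deposited FPKM values also correct for transcript length. In every column 100% of values came out as whole reads within 1e-06, and the recovered reads gave the depths. Library means per clone of log2(normalized count + 1) were tested with limma 3.58.1 (trend) in R 4.3.3. A gene was tested if 9 or more of 35 libraries reached 10 normalized counts. Genotype was tested on 3 against 3 clones, JQ1 on within-clone differences (JQ1 minus DMSO) that share 1 spread over 6 clones. p-values are two-sided, Benjamini-Hochberg adjusted over 15711 genes, with a threshold of 0.05; folds are on this log2 scale and understate low genes. The tests were checked on simulated data in which 200 of 15711 genes were changed. More genes passed in the real data, and the adjusted threshold depends on the share of changed genes, so recovery there can differ. In the simulation 2-fold changes were recovered in 6% and 8% of cases for genotype with DMSO and with JQ1. The share was 28% and 32% for JQ1 in control and KO clones, and 6% for the difference in response. Changes of 4-fold were recovered in 51% to 77% of cases. Of the calls, 3.28% to 10.9% were on unchanged genes. A gene that did not pass may therefore still differ by 2-fold, unless its own 95% interval excludes this. With JQ1 in control clones the log2 intervals of NFE2L2 (0.01 to 0.27) and SRXN1 (-0.14 to 0.19) exclude it. That of HMOX1 between genotypes with DMSO (-1.26 to 1.67) does not. Alternatives were pseudocounts of 0.5 and 10, filters, library totals, TMM, FPKM with an offset of 0.1, edgeR 4.0.16 and DESeq2 1.42.0 on recovered reads, single libraries, and leaving out each clone, library or replicate number. Replicate numbers showed little sign of pairing the 2 treatments of a clone: of 17 pairs of same-numbered DMSO and JQ1 libraries 1 had a correlation over 0.1 (-0.224 to 0.12). This does not show how the replicates were handled. Pairing by number between clones was not tested. The 9 genes, the lists and the tests were chosen with earlier results of these data known. The text names the 9 genes, NEUROD1, HEXIM1, genes from the 3 smallest adjusted p past the threshold per list and comparison, and the 3 genes most like each member, of which 1 is not reported here.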

Additional observations from a re-analysis of the deposited data

Results flagged for a closer look

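The response to JQ1 differed between KO and control clones for HMOX1 by 1.09 and for SRXN1 by 0.679 on the log2 scale, by the test of the difference itself.

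JQ1 replicate 1 of KO clone 12, which was left out of the comparisons and put back only as an alternative, held signal above all 35 other libraries for 7 of the 9 genes. It had 17419 normalized counts of GCLC, 3103 of GCLM, 8656 of NQO1, 2536 of HMOX1, 18426 of TXNRD1, 4741 of SRXN1 and 8162 of SLC7A11. The SLC7A11 value is 69.3 times, and that of NQO1 29.7 times, the mean of the other 2 libraries of the same clone and treatment, while TXNRD1 is 1.85 times it. NFE2L2 and KEAP1 stood at 1.22 and 1.34 times that mean, within the range of the other libraries. The same library held 46010 normalized counts of CEACAM6 and 12390 of SFTPA2 and was sequenced to 31825795 reads. The part of these in the 7 values was not tested.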

How the results depend on the processing

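Precision is limited by 3 clones per group, and 1 guide RNA and 1 cell line limit what the clones stand for. Of all single-gene values of the 9 genes under the alternatives, 2403 kept direction and side of the threshold, 40 fell below it, 42 passed it and 35 changed sign, in values that had not passed; the cause was not tested.

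Without a filter, in edgeR and with the left-out library put back, 1 of the 9 genes passed between genotypes with JQ1. With DMSO 2 passed under equal library totals, TMM and FPKM, and 3 in DESeq2. The JQ1 response differed for 1 of the 9 on FPKM and with the left-out library. Over all genes DESeq2 called 3284 between genotypes with DMSO, 2908 with JQ1 and 1769 for the difference in response, which had 521 on FPKM and 490 with the left-out library.

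Leaving out 1 clone, library or replicate number gave 911 to 2017 genes and 1 to 2 of the 9 for genotype with DMSO, 731 to 1771 genes and 1 to 3 of the 9 with JQ1, and 12 to 1636 genes and 0 to 3 of the 9 for the difference in response. The HMOX1 difference was lost without replicate number 2 or 3 (adjusted p = 0.0505 and 0.0506), the SRXN1 genotype call with JQ1 without number 1 (adjusted p = 0.0556).

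Sign changes were these. Equal library totals gave -0.0094 for NFE2L2 (genotype, DMSO) and -0.0446 for SRXN1 (JQ1, control). FPKM gave -0.0232 for NFE2L2 and 0.0795 for GCLM (genotype, DMSO), -0.0308 for NQO1 and -0.0417 for SRXN1 (JQ1, control), and -0.0629 for GCLC and -0.0227 for GCLM (difference in response). The left-out library gave 0.52 (genotype, JQ1) and 0.48 (difference in response) for SLC7A11. With 1 clone, library or number left out, genotype values with DMSO ran from -0.0872 to 0.124 for NFE2L2, -0.116 to 0.014 for KEAP1, -0.55 to 0.35 for GCLM, -0.50 to 0.66 for HMOX1, -0.0124 to 0.325 for SRXN1 and -0.27 to 0.42 for SLC7A11. With JQ1 they ran from -0.0993 to 0.0249 for NFE2L2, -0.0956 to 0.56 for GCLM and -0.74 to 0.60 for SLC7A11. The JQ1 change in control clones ran from -0.0284 to 0.349 for NQO1 and -0.0224 to 0.0941 for SRXN1, and the difference in response from -0.14 to 0.38 for GCLC and -0.67 to 0.39 for SLC7A11.

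Replicate numbers showed little sign of pairing the treatments of a clone. With single libraries as replicates and a replicate block, 3640 and 3176 genes and 3 and 5 of the 9 passed between genotypes with DMSO and with JQ1, 7 of the 9 for JQ1 in control clones, and 5397 genes and 5 of the 9 for the difference in response. Without the block the same single libraries gave 3784 and 3335 genes and 3 and 5 of the 9, 7 of the 9, and 6334 genes and 5 of the 9. The genotype fits used 1 correlation over all genes for libraries of the same clone. The JQ1 fits took out the level of each clone, or of each clone and replicate number with the block. They count libraries as replicates of the response, so clones are not the replicates there.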
